A study of Mus musculus with 20 samples.

Results

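The 46 genes described here encode proteins that bring a cell into mitosis, move its chromosomes and divide it. They were followed by RNA sequencing in the epididymal fat of mice. They were picked by name, with earlier results of these data known. The list runs from the cyclins and kinases of mitotic entry to the contractile ring. Each gene was matched to 1 row of a table of 39179 gene IDs. All 46 passed the filter on low counts that left 15254 genes to test. The animals were male C57BL6/J mice, an inbred laboratory strain. Day 0 animals ate normal chow, and the other groups had eaten a high-fat diet over 2, 4, 6 or 14 days. Each group held 4 libraries of biological replicates, 20 in all, each made from total RNA of whole adipose tissue. No group carried a genetic change or a drug, and the animals' age is not given in the sources used here.

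Mitosis begins when the kinase Cdk1, switched on by B-type cyclins, starts to phosphorylate proteins throughout the cell. Kinesin motors then build a spindle that captures chromosomes at their kinetochores, a checkpoint holds back separation until every chromosome is attached, and the anaphase-promoting complex releases it by tagging cyclins and securin for destruction. Most of these genes are silent or low in resting cells and switch on together as a cell nears division, so their RNA is widely used as a mark of dividing cells. In fat, mature adipocytes are regarded as non-dividing, while progenitors, endothelial cells and macrophages of the same tissue can divide.

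Total counts per library ran from 1916829 (day 2 replicate 1) to 38832429, and log2 levels correlated at 0.954 to 0.989 between libraries of the same day, across genes, which are not independent replicates. Levels are given as counts per 1000000 counts (CPM), scaled for composition by the trimmed mean of M values (TMM). Adipocyte markers summed to between 32604 and 57998 CPM in the 20 libraries and none of the 10 was at 0. 4 libraries stood apart. Day 4 replicate 1 lacked most of the rise described below, day 6 replicate 4 had much of it, day 2 replicate 1 was the shallowest, and chow replicate 4 held 82.3 CPM of 10 epididymal epithelium markers against 0.158 to 5.61 CPM in all other libraries. Results were therefore also computed without the first 2 and without all 4, alternatives chosen after seeing the data, the first 2 libraries from the values of these genes.

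The 46 genes were low on chow, rose on day 4 and were lower again in most later libraries. Their summed level was 127, 102, 159 and 123 CPM in the 4 chow libraries. It was 194, 126, 187 and 169 CPM on day 2, and 200, 1518, 1293 and 1268 CPM on day 4. On day 6 it was 159, 227, 288 and 939 CPM, and on day 14 it was 243, 146, 210 and 157 CPM. Day 4 replicates 2, 3 and 4 therefore held several times the chow level and day 6 replicate 4 followed them, while day 4 replicate 1 lay just above the highest day 2 library. Every one of the 46 genes behaved the same way. Each was higher in day 4 replicates 2 to 4 than in any of the other 17 libraries. For each the next highest library was day 6 replicate 4. This split was read from these genes' own values, and the share of all tested genes that had it was not computed. In bulk tissue, more dividing cells and more of these RNAs per dividing cell cannot be told apart.

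**Figure D1:**
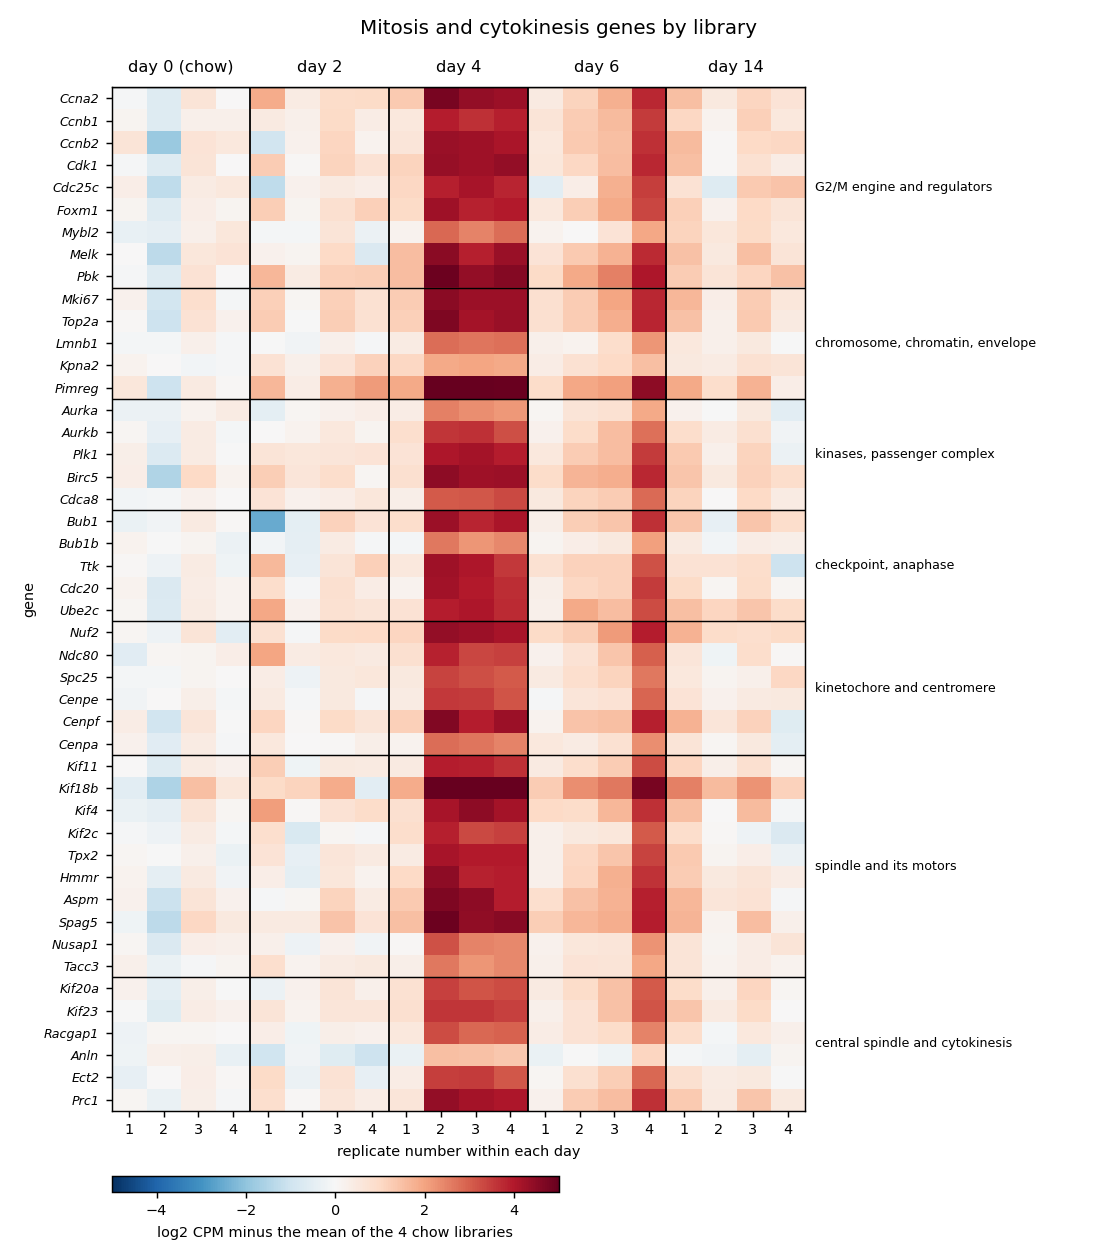
Heat map of the 46 genes (rows, grouped by role) in the 20 libraries (columns, 4 per day), coloured by the log2 CPM minus the mean of the 4 chow libraries. The dark red columns are day 4 replicates 2 to 4 and day 6 replicate 4, and day 4 replicate 1 is pale.

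Against chow, all 46 genes were called higher on day 4 at a Benjamini-Hochberg adjusted p under 0.05 in the edgeR quasi-likelihood test, where 18% of all tested genes were called higher and 35.3% in either direction. The median log2 change of the 46 was 3.52, an 11.5-fold rise, against -0.02 over all tested genes, of which 48.3% were above 0. The smallest was that of Anln (1.13 ± 0.35, SE) and the largest that of Pimreg (4.59 ± 0.80), and adjusted p ran from 0.000654 to 0.0199. In 37 of the 46 all 4 day 4 libraries were above all 4 chow libraries, against 15.2% of all tested genes. The 9 that overlapped did so through day 4 replicate 1. In that library the median gene measured 0.114 times the mean of the other 3 libraries of the day, from 0.0688 times for Cdc20 to 0.539 times for Kpna2. Among the other 3 the highest library was 1.29 times the lowest in the median gene, and 1.72 times for Nusap1, the widest. Without day 4 replicate 1 and day 6 replicate 4 all 46 were called higher with a median of 3.92, and without all 4 libraries that stood apart 46 were called with a median of 3.91, while 19.1% and 15.7% of all genes were called higher. Leaving out any single library left 45 or 46 called. Anln was the gene lost, with adjusted p = 0.0637 without chow replicate 4, 0.0565 without day 4 replicate 2, 0.0532 without day 4 replicate 3 and 0.0637 without day 4 replicate 4 (edgeR, as above).

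**Figure D2:**
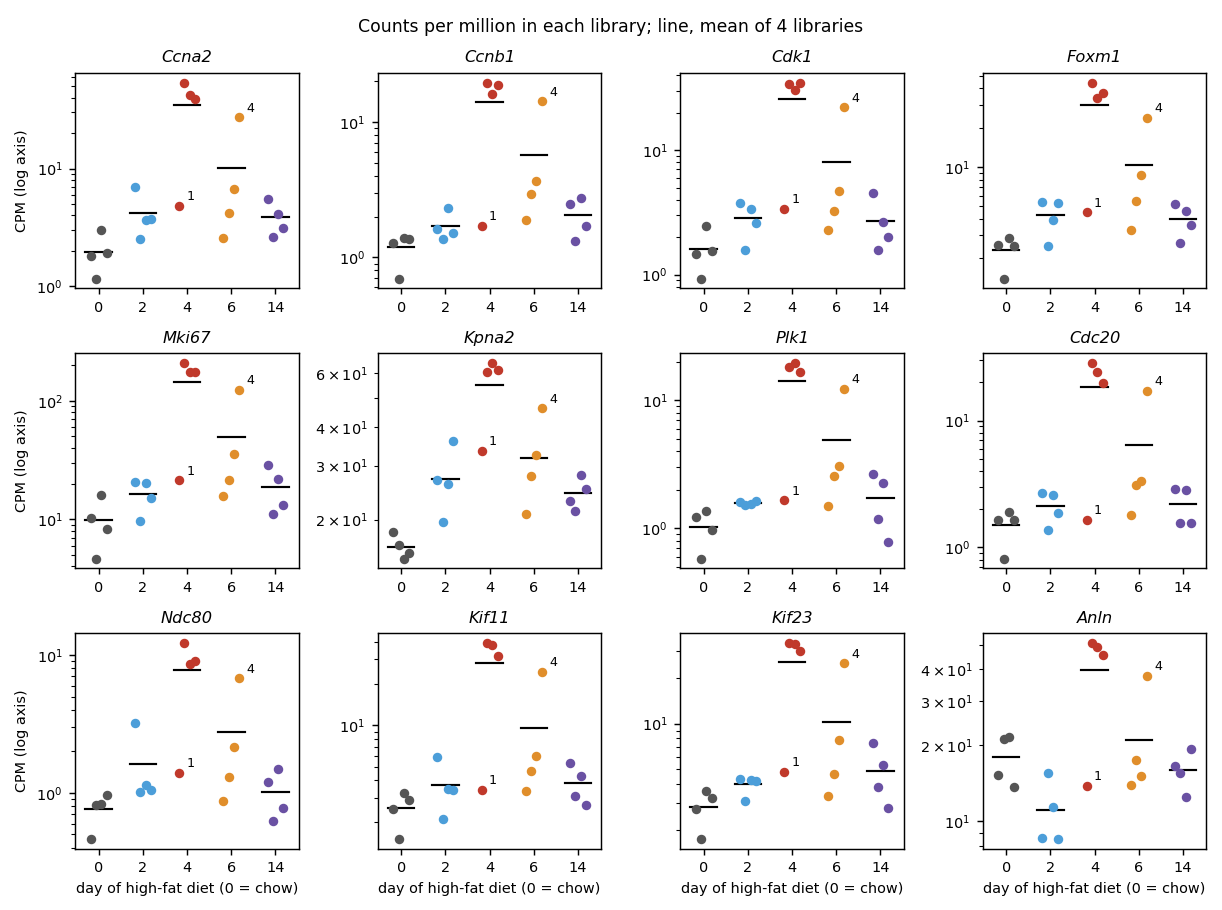
CPM of 12 of the genes in every library, on a log axis, against the day of high-fat diet (0 is chow). Each point is 1 library and each line the mean of 4, and the labels 1 and 4 mark day 4 replicate 1 and day 6 replicate 4.

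The engine of mitotic entry rose in full, 9 of 9 genes, with a median log2 change of 3.75 on day 4. Ccnb1, the B-type cyclin that activates Cdk1, measured 1.28, 0.697, 1.39 and 1.37 CPM on chow and 1.62, 1.38, 2.31 and 1.52 CPM on day 2. It measured 1.72, 19.3, 15.98 and 18.7 CPM on day 4, 1.88, 2.92, 3.63 and 14.2 CPM on day 6 and 2.46, 1.31, 2.74 and 1.71 CPM on day 14. Its lowest day 4 library was above the highest chow library but within the range of day 2, and its log2 change on day 4 was 3.47 ± 0.65 (edgeR quasi-likelihood fit, Benjamini-Hochberg adjusted p = 0.00148). Cdk1, the kinase itself, measured 1.45, 0.930, 2.45 and 1.56 CPM on chow, 3.37, 33.6, 30.4 and 34.5 CPM on day 4 and 2.299, 3.24, 4.65 and 22.03 CPM on day 6, with 3.78, 1.58, 3.37 and 2.57 CPM on day 2 and 4.54, 1.57, 2.62 and 2.02 CPM on day 14. It rose by 3.89 ± 0.73 on the log2 scale, and all of its day 4 libraries lay above chow. Ccna2, the cyclin of DNA replication and early mitosis, measured 4.83, 53.4, 41.9 and 38.8 CPM on day 4 against 1.803, 1.16, 3.01 and 1.901 CPM on chow, a log2 change of 4.03 ± 0.72. On day 2 its libraries read 7.01, 2.496, 3.64 and 3.74 CPM, on day 6 2.57, 4.19, 6.698 and 27.3 CPM and on day 14 5.54, 2.63, 4.104 and 3.11 CPM. Its day 4 replicate 1 thus lay above chow, and within the range of day 2 only through the shallow day 2 replicate 1.

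Among the transcription factors of this phase, Foxm1, which drives genes of G2 and mitosis, measured 2.501, 1.39, 2.86 and 2.49 CPM on chow and 4.51, 43.9, 33.96 and 36.9 CPM on day 4. On day 2 it measured 5.395, 2.496, 3.94 and 5.26 CPM, on day 6 3.295, 5.45, 8.65 and 23.7 CPM and on day 14 5.23, 2.63, 4.56 and 3.58 CPM, and its log2 change on day 4 was 3.61 ± 0.62. It did not overlap chow on day 4 or on day 6: even day 6 replicate 1, at 3.295 CPM, was above the highest chow library at 2.86 CPM. Mybl2, which encodes B-Myb, rose less, by 2.36 ± 0.51, from 0.872, 0.814, 1.42 and 1.78 CPM to 1.34, 9.25, 7.102 and 8.83 CPM. It measured 1.08, 1.07, 1.89 and 0.935 CPM on day 2, 1.34, 1.19, 1.95 and 4.77 CPM on day 6 and 2.62, 1.75, 2.39 and 1.71 CPM on day 14. Its first day 4 library lay inside the chow range, and day 6 replicate 4 was 0.568 times the mean of day 4 replicates 2 to 4 and the lowest such ratio of the 46. Pbk, a kinase of dividing cells, had the third largest change, 4.33 ± 0.70, with 0.407, 0.232, 0.785 and 0.436 CPM on chow, 1.46, 16.2, 11.5 and 13.01 CPM on day 4 and 0.958, 1.94, 3.07 and 8.98 CPM on day 6. On day 2 it read 1.62, 0.611, 1.14 and 1.17 CPM and on day 14 1.19, 0.751, 1.03 and 1.399 CPM, with 1 library of each of these days inside the chow range. The remaining 3 were the B-type cyclin Ccnb2 (3.51 ± 0.76), the kinase Melk (3.81 ± 0.72) and Cdc25c (3.75 ± 0.90), the phosphatase that releases Cdk1 from inhibition. Cdc25c rested on the fewest reads, 270 over the 20 libraries. It had 0 reads in chow replicate 2 and in day 2 replicate 1, where 3 counts would have read 0.349 and 1.62 CPM.

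Start regions of 37 of the 46 genes were matched by symbol in a RefSeq table (build GRCm38.p6) that holds 250 bases before and 50 after each annotated start, 39 regions in all. Ccna2, Cdc25c, Foxm1, Pbk, Lmnb1, Pimreg, Aurkb, Tpx2 and Kif20a were not matched. Promoters of genes that peak in G2 and mitosis are known for a cell cycle genes homology region (CHR), the site of the MuvB complex to which B-Myb and Foxm1 bind, placed close behind CCAAT boxes that bind NF-Y. The 3 stretches below, the 150 bases before the start of Cdk1 (chr10:69352913-69353062, minus strand), Ccnb2 (chr9:70421555-70421704, minus strand) and Cdc20 (chr4:118437344-118437493, minus strand), are shown because each holds several of these letters close to the start of a gene of mitotic entry or exit. Capitals mark TTTGAA, and CCAAT or its reverse complement ATTGG.
Cdk1: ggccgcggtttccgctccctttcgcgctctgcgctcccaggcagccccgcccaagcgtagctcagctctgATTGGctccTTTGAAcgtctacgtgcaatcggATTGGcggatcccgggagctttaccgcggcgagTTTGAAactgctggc
Ccnb2: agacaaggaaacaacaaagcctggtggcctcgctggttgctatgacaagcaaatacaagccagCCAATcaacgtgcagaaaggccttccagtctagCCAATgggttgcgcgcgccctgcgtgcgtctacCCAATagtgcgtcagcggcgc
Cdc20: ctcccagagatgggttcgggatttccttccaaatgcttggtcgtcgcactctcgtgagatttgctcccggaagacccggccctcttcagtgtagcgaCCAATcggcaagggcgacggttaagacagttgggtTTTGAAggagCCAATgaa
The CHR-type letters of many of the genes fall at or just behind the start, as in these 30-base stretches of Ccnb2 (chr9:70421533-70421562, minus strand, first motif base at 5), Plk1 (chr7:122159453-122159482, plus strand, at 31) and Kif23 (chr9:61946780-61946809, minus strand, at 3).
Ccnb2: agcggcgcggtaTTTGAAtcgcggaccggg
Plk1: cccagcgccgcgTTTGAAttcggggaggag
Kif23: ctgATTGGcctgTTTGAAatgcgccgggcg

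Searched on both strands, TTTGAA or TTCGAA was found in 31 of the 39 start regions (79.5%), against 19.2% of all 32851 regions in the table and 14.2% of the 14263 that belong to tested genes. CCAAT was found in 30 of 39 (76.9%), against 37.4% and 37.1%, and at least 2 copies were found in 56.4%, against 11.7% and 13.6%. Both motifs were present in 71.8% of the regions of these genes, against 7.52% of all and 5.84% of those of tested genes. Matches of the 2 motifs can share at most 1 base. Of 41 CHR-type matches 30 began between -50 and 50 relative to the start, with a median first base at 3. For CCAAT, 57 of 71 matches began between -150 and -1, with a median at -62. Ect2 and Prc1 each had 2 overlapping start regions, so their regions and matches are counted more than once in these figures. Ccnb1 (CCAAT at -99 and -67) and Cenpe held CCAAT and no CHR-type letters in this window, Anln, Kif2c and Ndc80 held CHR-type letters and no CCAAT, and Mybl2, Melk, Birc5, Nuf2, Nusap1 and Tacc3 held neither. These are matches of letters, not measured binding, and a window without them says nothing on the factors.

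**Figure D3:**
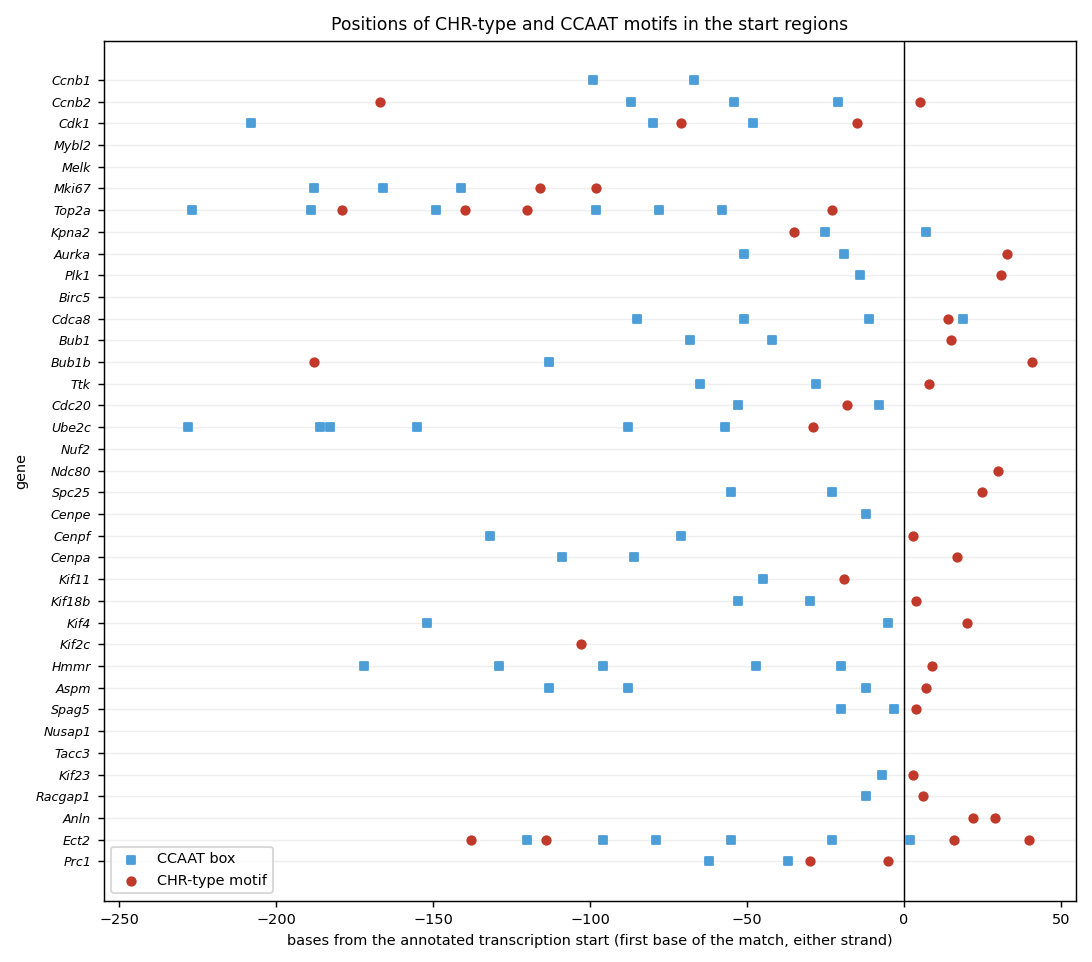
Position of each CCAAT box (blue squares) and CHR-type motif (red circles) in the start regions of 37 genes, in bases from the annotated transcription start, as the first base of the match on either strand. CCAAT boxes lie mostly in the 150 bases before the start and CHR-type motifs mostly within 50 bases of it.

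The 5 genes of chromosomes, chromatin and the nuclear envelope all rose on day 4, with a median log2 change of 3.82. Mki67, the Ki-67 antigen that coats mitotic chromosomes, measured 10.3, 4.65, 15.9 and 8.32 CPM on chow and 20.5, 9.63, 20.4 and 15.1 CPM on day 2. It then measured 21.4, 208, 175 and 175 CPM on day 4, 15.7, 21.5, 35.7 and 123 CPM on day 6 and 28.7, 11.1, 21.7 and 13.2 CPM on day 14. All 4 day 4 libraries were above chow, the first of them close to the highest day 2 libraries, and the change was 3.82 ± 0.68 (edgeR quasi-likelihood fit, Benjamini-Hochberg adjusted p = 0.00125). Top2a, the topoisomerase that untangles sister DNA, went from 5.12, 2.32, 8.15 and 5.61 CPM to 11.1, 127, 88.1 and 97.9 CPM, a change of 3.84 ± 0.70, and read 11.9, 4.84, 11.6 and 8.3 CPM on day 2, 8.43, 11.97, 17.2 and 68.7 CPM on day 6 and 13.6, 5.82, 12.3 and 6.69 CPM on day 14. All its day 4 and day 6 libraries lay above chow, and days 2 and 14 overlapped it. Pimreg, a mitotic regulator that binds PICALM, had the largest change of all 46, 4.59 ± 0.80, with 0.931, 0.232, 0.860 and 0.623 CPM on chow, 2.54, 22.3, 23.3 and 21.97 CPM on day 4 and 1.23, 2.65, 2.88 and 15.6 CPM on day 6. It read 2.16, 0.815, 2.31 and 3.04 CPM on day 2 and 2.58, 1.19, 2.28 and 0.777 CPM on day 14. Its 3 high day 4 libraries were nearly equal, and the first lay within the range of day 2. Lmnb1, a lamin of the nuclear envelope, started higher and rose less, from 6.75, 6.63, 8.66 and 6.85 CPM to 9.54, 50.01, 46.8 and 49.1 CPM (2.40 ± 0.45). It read 7.01, 6.42, 8.64 and 6.897 CPM on day 2, 8.62, 8.22, 13.1 and 33.9 CPM on day 6 and 10.5, 8.51, 10.1 and 6.996 CPM on day 14, overlapping chow on all 3 days.

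Kpna2, an importin that carries cargo into the nucleus, was higher than on chow in every high-fat library, and rose on day 4. It measured 18.3, 16.5, 14.9 and 15.5 CPM on chow, 26.98, 19.6, 26.1 and 36.01 CPM on day 2, 33.6, 60.7, 64.8 and 61.4 CPM on day 4, 20.9, 27.8, 32.6 and 46.3 CPM on day 6 and 23, 21.3, 27.9 and 25.2 CPM on day 14. The lowest high-fat library, day 2 replicate 2, lay just above the highest chow library, and day 4 replicate 1 kept 0.539 times the mean of the other 3. Its change on day 4 was 1.75 ± 0.23, the second smallest of the 46, yet with the smallest adjusted p of them, 0.000654 (edgeR quasi-likelihood test, Benjamini-Hochberg). Of its 50-base stretches 61.6% are shared with the copy Gm10184 and 47.2% with Gm10259, which had 30 and 12 reads over the 20 libraries, so some of its reads may have been left out or assigned elsewhere in the authors' counting.

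The 5 mitotic kinases and members of the chromosomal passenger complex rose with a median of 3.12. Aurkb, the kinase of that complex, measured 1.74, 1.16, 2.18 and 1.496 CPM on chow, 2.99, 20.2, 21.3 and 15.8 CPM on day 4 and 1.88, 3.16, 4.93 and 11.4 CPM on day 6, a day 4 change of 3.12 ± 0.54. It measured 1.62, 1.83, 2.39 and 1.75 CPM on day 2 and 3.04, 2.19, 2.85 and 1.399 CPM on day 14, both overlapping chow. Its partners Birc5 (survivin) and Cdca8 (borealin) changed by 3.69 ± 0.71 and 2.86 ± 0.55. Plk1, which acts from mitotic entry to cytokinesis, measured 1.22, 0.581, 1.37 and 0.966 CPM on chow, 1.62, 1.53, 1.55 and 1.64 CPM on day 2 and 1.65, 18.3, 19.5 and 16.8 CPM on day 4. On day 6 it measured 1.49, 2.57, 3.07 and 12.3 CPM, on day 14 2.65, 1.19, 2.28 and 0.777 CPM, and its day 4 change was 3.67 ± 0.69. Its 4 day 2 libraries were tightly grouped and all above chow, and day 4 replicate 1 sat just above them. Aurka, the kinase of spindle poles, had the third smallest change of the list (2.00 ± 0.41, adjusted p = 0.00225 in the same edgeR test), from 1.86, 1.86, 2.61 and 3.12 CPM to 3.05, 13.9, 11.98 and 10.7 CPM, and its first day 4 library lay within the chow range. It measured 1.62, 2.45, 2.73 and 2.92 CPM on day 2, 2.45, 3.68, 4 and 8.98 CPM on day 6 and 2.69, 2.25, 3.31 and 1.55 CPM on day 14, all overlapping chow.

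The spindle checkpoint and the parts of the anaphase-promoting complex that come and go with the cycle rose in 5 of 5 cases, with a median of 3.52. Bub1, a checkpoint kinase at kinetochores, measured 0.407, 0.465, 0.785 and 0.561 CPM on chow, 1.08, 12.6, 9.099 and 11.1 CPM on day 4 and 0.690, 1.42, 1.58 and 8.097 CPM on day 6, a change of 3.83 ± 0.80. It measured 0, 0.357, 1.33 and 0.935 CPM on day 2 and 1.62, 0.376, 1.596 and 1.09 CPM on day 14, and the 0 in day 2 replicate 1 stands where 3 counts would have read 1.62 CPM. Cdc20, which activates the anaphase-promoting complex, measured 1.63, 0.814, 1.898 and 1.65 CPM on chow, 2.698, 1.38, 2.58 and 1.87 CPM on day 2, 1.65, 28.4, 23.97 and 19.7 CPM on day 4, 1.801, 3.08, 3.35 and 17.2 CPM on day 6 and 2.88, 1.57, 2.85 and 1.55 CPM on day 14. Its first day 4 library lay inside the chow range, the lowest of the 46 relative to the other 3, and its change was 3.52 ± 0.72 (edgeR quasi-likelihood fit, Benjamini-Hochberg adjusted p = 0.00224). Ube2c, the ubiquitin-conjugating enzyme of that complex, measured 1.92, 1.05, 2.35 and 2.03 CPM on chow, 2.99, 28.6, 30.8 and 25.1 CPM on day 4 and 2.15, 6.797, 5.395 and 18.1 CPM on day 6 (3.48 ± 0.63), with 7.01, 2.09, 3.07 and 2.81 CPM on day 2. On day 14 it read 5.19, 3.82, 4.79 and 3.42 CPM, all still above chow. The checkpoint kinases Bub1b (2.08 ± 0.47) and Ttk (3.75 ± 0.73) completed the group.

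At the kinetochore and centromere 6 of 6 genes rose, with a median of 3.17. Ndc80, the microtubule-binding arm of the kinetochore, measured 0.465, 0.814, 0.835 and 0.966 CPM on chow, 3.24, 1.02, 1.14 and 1.05 CPM on day 2, 1.399, 12.2, 8.66 and 9.09 CPM on day 4, 0.881, 1.304, 2.14 and 6.78 CPM on day 6 and 1.19, 0.626, 1.48 and 0.777 CPM on day 14, and changed by 3.28 ± 0.65 on day 4. One day 2 library, the shallow replicate 1, stood above day 4 replicate 1, and the other 3 lay just above chow. Its partners in the same complex, Nuf2 and Spc25, changed by 3.96 ± 0.72 and 2.94 ± 0.54. Cenpa, the histone variant that marks the centromere, rose less: 3.897, 2.21, 4.505 and 3.21 CPM on chow, 3.75, 24.2, 21.97 and 19.4 CPM on day 4 and 4.87, 4.51, 5.67 and 17.1 CPM on day 6, a day 4 change of 2.26 ± 0.49. It measured 4.86, 3.36, 3.49 and 4.09 CPM on day 2 and 5.35, 3.57, 4.67 and 2.33 CPM on day 14. Its first day 4 library lay inside the chow range. The kinesin Cenpe (3.05 ± 0.61) and the large kinetochore protein Cenpf (3.82 ± 0.76) moved with them.

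The spindle and its motors rose in 10 of 10 cases, with a median of 3.73. Kif11, the motor that pushes spindle poles apart, measured 2.501, 1.51, 3.26 and 2.898 CPM on chow, 5.93, 2.09, 3.49 and 3.39 CPM on day 2, 3.43, 39.3, 37.95 and 31.9 CPM on day 4, 3.37, 4.66, 6.05 and 24.4 CPM on day 6 and 5.31, 3.07, 4.33 and 2.64 CPM on day 14. Its day 4 change was 3.38 ± 0.66 (edgeR quasi-likelihood fit, Benjamini-Hochberg adjusted p = 0.00172), with all day 4 libraries above chow. Kif18b, a kinesin of microtubule plus ends, had the second largest change of the list, 4.52 ± 0.89, from 0.116, 0, 0.835 and 0.374 CPM to 1.08, 14.7, 10.4 and 12.4 CPM, and read 0.540, 0.611, 1.099 and 0.117 CPM on day 2, 0.690, 1.58, 1.95 and 8.85 CPM on day 6 and 1.81, 0.876, 1.48 and 0.622 CPM on day 14. Chow replicate 2 had 0 reads, where 3 counts would have read 0.349 CPM, so the size of this change depends on how the model treats low counts. Tpx2, which activates Aurka on the spindle, measured 2.501, 2.32, 2.78 and 1.84 CPM on chow, 3.12, 42.2, 38.4 and 37.9 CPM on day 4 and 2.84, 4.9, 6.23 and 25.3 CPM on day 6 (3.66 ± 0.71). It read 3.78, 1.73, 3.6 and 3.27 CPM on day 2 and 6.04, 2.57, 2.96 and 1.87 CPM on day 14, both overlapping chow. The motors Kif4 (3.89 ± 0.76) and Kif2c (3.28 ± 0.68) and the spindle proteins Aspm (3.88 ± 0.72), Spag5 (4.01 ± 0.73) and Hmmr (3.79 ± 0.71) rose by 3.28 to 4.01. Nusap1 (2.30 ± 0.50) and Tacc3 (2.08 ± 0.40), both microtubule-binding spindle proteins, had the 2 smallest changes of this group.

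Genes of the central spindle and cytokinesis rose in 6 of 6 cases, with a median of 2.97. Kif23, the motor subunit of centralspindlin, measured 2.73, 1.74, 3.62 and 3.24 CPM on chow, 4.32, 3.11, 4.28 and 4.21 CPM on day 2, 4.83, 33.8, 33.5 and 30.2 CPM on day 4, 3.33, 4.62, 7.81 and 24.9 CPM on day 6 and 7.42, 3.82, 5.36 and 2.799 CPM on day 14, and changed by 3.09 ± 0.60 on day 4. Its partner Racgap1 changed by 2.69 ± 0.48. Ect2, the exchange factor that switches on RhoA at the division plane, measured 1.16, 1.63, 2.02 and 1.65 CPM on chow, 2.098, 18.7, 19.1 and 14.5 CPM on day 4 and 1.72, 2.88, 3.91 and 12.4 CPM on day 6 (3.02 ± 0.61). It read 3.24, 1.27, 2.69 and 1.17 CPM on day 2 and 2.88, 2.13, 2.28 and 1.55 CPM on day 14, both overlapping chow. The microtubule bundler Prc1 (3.81 ± 0.71) had the largest change of this group, and the kinesin Kif20a changed by 2.91 ± 0.55. Anln, the anillin scaffold of the contractile ring, was the exception in size. It measured 15.3, 21.2, 21.6 and 13.6 CPM on chow, 8.63, 15.6, 11.4 and 8.53 CPM on day 2, 13.9, 50.6, 49.05 and 45.4 CPM on day 4, 13.9, 17.5, 15.2 and 37.6 CPM on day 6 and 16.5, 15.6, 12.5 and 19.3 CPM on day 14. Its level on chow was already high, its day 2 mean was below chow (a log2 change of -0.63 ± 0.37, not called), and day 4 replicate 1 lay within the chow range. Its day 4 change of 1.13 ± 0.35 had the largest adjusted p of the 46, 0.0199 (edgeR quasi-likelihood test, Benjamini-Hochberg).

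**Figure D4:**
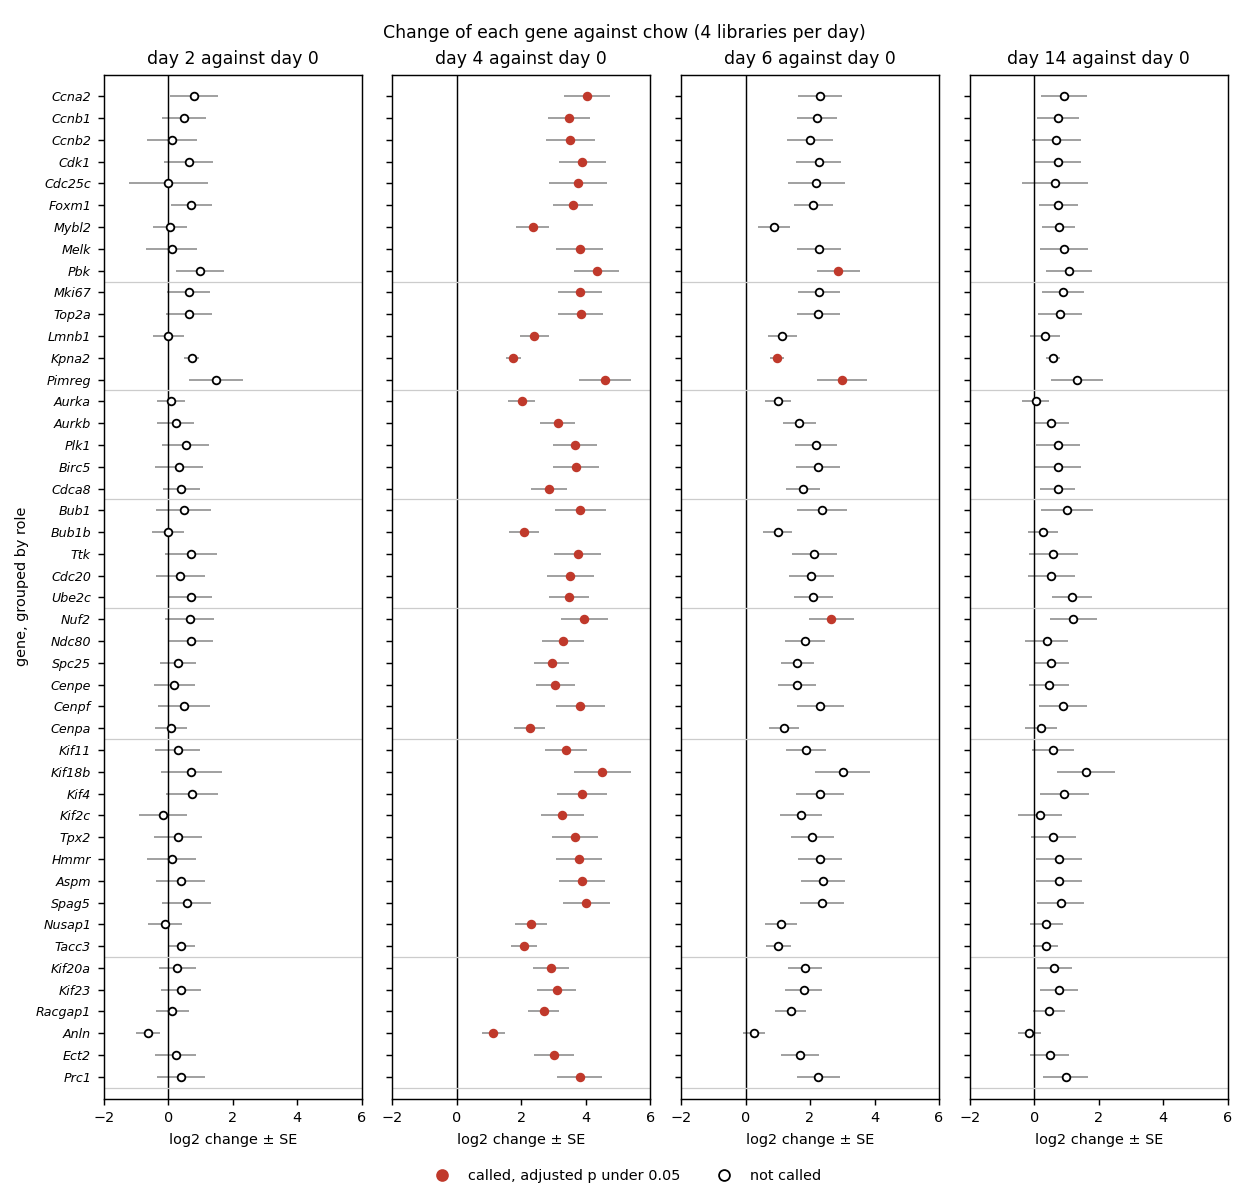
Log2 change ± SE of each of the 46 genes against chow on days 2, 4, 6 and 14, from 4 libraries per day, with filled red points for genes called at an adjusted p under 0.05. All 46 are filled on day 4, 4 on day 6 (Pbk, Kpna2, Pimreg and Nuf2) and none on days 2 and 14.

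After 2 days none of the 46 genes was called against chow by the edgeR quasi-likelihood test, where 4.39% of all tested genes were (2.43% higher). At an unadjusted p under 0.05 there was 1 (25.8% of all tested genes), Kpna2 (log2 change 0.73 ± 0.23, Benjamini-Hochberg adjusted p = 0.0732). DESeq2 called the same gene alone, with adjusted p = 0.0299, and limma-voom called 0. The median log2 change was 0.39, from -0.63 for Anln to 1.49 for Pimreg, and 42 of 46 were above 0 against 45.7% of all tested genes. In 3 genes, Kpna2, Plk1 and Ndc80, all day 2 libraries lay above all chow libraries, against 5.47% of all tested genes. Without day 2 replicate 2 Kpna2 was called (1 gene, adjusted p = 0.0308), without day 4 replicate 1 as well (1 gene, 0.0478) and with day 4 replicate 1 and day 6 replicate 4 set aside (1 gene, where 4.31% of all genes were called), and without all 4 libraries that stood apart the count was 0 in the same edgeR test.

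Between day 2 and day 4, 45 of 46 genes were called higher, as were 2.14% of all tested genes, with 2.4% called in either direction. The median log2 change was 3.09, and all 46 were above 0 against 48.9% of all tested genes. Adjusted p lay in the narrow range 0.0412 to 0.0513 (edgeR quasi-likelihood test, Benjamini-Hochberg). Cdc25c was the gene that missed, with 3.74 ± 0.99 and adjusted p = 0.0512. Day 4 replicate 1 was within the range of the day 2 libraries for 30 of the 46 genes and above it for 16. The top of that range was set by day 2 replicate 1, the shallowest library, in 24 of the 46 genes. That library held 359 reads of the 46 genes. In 16 genes day 2 and day 4 did not overlap, against 4.07% of all tested genes. The count was close to its threshold: it was 0 without any one of the 4 chow libraries, day 2 replicates 1, 2 or 3, day 4 replicates 2, 3 or 4, day 6 replicate 3 or any one of the 4 day 14 libraries, and also 0 by limma-voom. The median stayed between 2.83 and 3.16 in those leave-one-out fits and was 2.27 by limma-voom. With day 4 replicate 1 and day 6 replicate 4 set aside, 46 were called and 10% of all genes were called higher, but those libraries were set aside after these genes' values were seen.

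After 6 days the 46 genes split by library. Day 6 replicate 4 was the highest of its day in 46 of 46 genes, at a median of 0.694 times the mean of day 4 replicates 2 to 4 (from 0.568 for Mybl2 to 0.856 for Kif20a). It was below each of those 3 libraries in every one of the 46. The mean log2 level of the 46 genes above chow was 0.44, 1.02, 1.38 and 3.17 in day 6 replicates 1 to 4, against 0.77, 3.85, 3.62 and 3.58 on day 4. Against chow 4 genes were called higher, where 1.99% of all tested genes were (3.45% in either direction). They were Pbk (2.88 ± 0.67, edgeR quasi-likelihood fit, Benjamini-Hochberg adjusted p = 0.0366), Kpna2 (0.97 ± 0.23, 0.0366), Pimreg (2.99 ± 0.77, 0.0439) and the kinetochore gene Nuf2 (2.65 ± 0.70, 0.0444). All 46 changes were above 0 with a median of 2.08, against 48.8% of all tested genes above 0, and 44 had an unadjusted p under 0.05, against 24.4%. In 19 genes the day 6 and chow libraries did not overlap, against 6.2% of all tested genes.

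These day 6 counts rested on single libraries. Without day 6 replicate 4 the count was 0 and the median was 0.96, and Anln turned from 0.25 to -0.20. The count was also 0 without chow replicate 2, chow replicate 4, day 6 replicate 2 or day 6 replicate 3. It was 1 without chow replicate 3, and 2 without day 2 replicate 1, day 2 replicate 3, day 4 replicate 2, 3 or 4, or day 14 replicate 1 or 2. It was 35 without day 4 replicate 1 and 35 without day 6 replicate 1. DESeq2 called 34 and limma-voom 1. In the 3 other day 6 libraries Mki67 was at 15.7, 21.5 and 35.7 CPM against at most 15.9 CPM on chow. Foxm1 was at 3.295, 5.45 and 8.65 CPM against at most 2.86 CPM. Anln stayed inside its chow range of 13.6 to 21.6 CPM, at 13.9, 17.5 and 15.2 CPM. Day 6 replicate 1 exceeded all chow libraries in 19 of the 46 genes, replicate 2 in 42, replicate 3 in 45 and replicate 4 in 46. The share of all tested genes above chow in a single library was not computed, so these counts only describe the 46 genes.

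From day 4 to day 6 all 46 genes had a negative change, with a median of -1.47, but 0 were called by edgeR's quasi-likelihood fit (Benjamini-Hochberg adjusted p from 0.24 to 0.321), as were 0% of all tested genes. At an unadjusted p under 0.05 there were 43, against 16.3% of all tested genes, of which 50.4% had a change above 0, and limma-voom also called 0. DESeq2 gave no adjusted p for any of the 46. The groups overlapped in every one of the 46 genes, against 3.07% of all tested genes that lay lower without overlap, since day 4 replicate 1 was the lowest of its day in all 46 and day 6 replicate 4 the highest of its day in all 46. Without day 4 replicate 1 the count was 26 lower, and without day 6 replicate 4 it was 45 lower. With both set aside all 46 were called lower, with a median of -2.91, while 7.99% of all genes were called lower. Both were set aside because of these genes' values, so that count describes the other libraries only.

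After 14 days none of the 46 genes was called against chow, where 1.18% of all tested genes were (0.878% higher), and 1 had an unadjusted p under 0.05, against 18% of all tested genes. DESeq2 and limma-voom called none either, nor was any called with day 4 replicate 1 and day 6 replicate 4 set aside (1.93% of all genes). The median log2 change was 0.72 and 45 of 46 were above 0, against 48.7% of all tested genes. The smallest adjusted p was 0.189, for Kpna2 (0.58 ± 0.23, edgeR quasi-likelihood test, Benjamini-Hochberg). Kif18b had the largest change (1.60 ± 0.89) and Anln the one below 0 (-0.16 ± 0.36), and neither was called. In 4 genes, Kpna2, Ube2c, Nuf2 and Prc1, all day 14 libraries lay above all chow libraries, against 5.28% of all tested genes. Day 14 replicates 1 and 3 were above all chow libraries in 44 genes each, while replicates 2 and 4 were so in 11 and 17. Their Mki67 levels, 28.7 and 21.7 CPM against 11.1 and 13.2 CPM, show the same spread. For single libraries the share of all tested genes above chow was not computed, so these counts only describe the 46 genes.

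From day 4 to day 14, 45 of 46 genes were called lower, as were 4.78% of all tested genes, with 9.36% called in either direction. All 46 changes were below 0, where 50.3% of all tested genes were above 0. The median change was -2.84, and the smallest fall was that of Kpna2 (-1.17 ± 0.23). Mybl2 missed the threshold, at -1.60 ± 0.51 with adjusted p = 0.0534 (edgeR quasi-likelihood test, Benjamini-Hochberg). In 3 genes, Melk, Pbk and Kpna2, all day 14 libraries lay below all day 4 libraries, against 6.36% of all tested genes, since day 4 replicate 1 was low throughout. The count was 0 without day 4 replicate 2, 3 or 4 and without day 14 replicate 1 or 2, 22 without day 14 replicate 4, and 1 by limma-voom. With day 4 replicate 1 and day 6 replicate 4 set aside it was 46, where 9.74% of all genes were called lower. Over all 5 groups together, a difference of any kind was called for 46 of 46 genes, against 19.6% of all tested genes, with adjusted p from 0.00640 to 0.0191 in the edgeR quasi-likelihood test, though limma-voom called 2.

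Day 4 had the highest mean of the 5 groups for all 46 genes and day 6 the second highest for all 46, but no gene was called between these 2 days. Neither day 2 nor day 14 was called against chow for any of the 46, and day 14 was not tested against day 2. The order day 4, day 6, day 14, day 2, day 0 held for 30 genes, and day 0 was lowest by mean for 41 and day 2 for 5. By the median of the 4 libraries, on which day 6 replicate 4 weighs less, that order held for 23 genes, and in 2 genes day 6 was not next after day 4. Divided by exon length (CPM per kb, lengths from GENCODE M21, which may not be the authors' annotation), Kpna2 had the highest level of the 46 on chow at 5.67 ± 0.510 and on day 4 at 19.2 ± 5.04 (SD, n = 4). On chow Lmnb1 (2.44 ± 0.325), Anln (1.98 ± 0.445) and Tacc3 (1.43 ± 0.262) came next. On day 4 Mki67 (14.4 ± 8.32), at rank 6 on chow, took rank 2, while Anln (4.38 ± 1.92) had gone from rank 3 to rank 21. Cdc25c was lowest on both days, 0.0389 ± 0.0263 and 0.655 ± 0.384 CPM per kb. The genes with the highest chow level per length, Kpna2, Lmnb1, Anln and Tacc3, were also among those with the smaller rises. The rise is measured against the same chow libraries, so it is not independent of the chow level. At the next ranks the rises were mixed, smaller for Bub1b, Aurka and Nusap1 and larger for Mki67, Ccnb2 and Cdc20.

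Some of these genes overlap a neighbour on the opposite strand, and whether the authors' counting used strand is not given in the sources used here. By GENCODE M21, 29.3% of the exon bases of Kif20a are shared with Cdc23 (13879 reads in all libraries, against 1923 for Kif20a). For Ube2c it is 22.8% with Tnnc2 (4 reads, against 2188), and for Kif4 15.1% with Pdzd11 (9920 reads, against 1026). For Cdc25c it is 12.7% with Gm3550 (23 reads, against 270), and for Ccna2 12.5% with Exosc9 (6458 reads, against 2879). Prc1 shares 11.1% with Rccd1 (2990 reads, against 3876). If strand was not used, reads of the gene and of its neighbour cannot be told apart in these shared stretches. Near-identical copies also exist for Ccnb1 (18.9% of its 50-base stretches in Ccnb1-ps, which had 9 reads), Mybl2 (18.6% in Gm3320), Cdc20 (10.3% in Gm7856, 4 reads) and Plk1 (6.56% in Plk-ps1, 202 reads), so their levels carry some uncertainty.

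Other genes of the same machinery, outside the 46, were called higher on day 4 in most cases, where 18% of all tested genes were. Like the 46, these lists were chosen with earlier results of these data known. Of 26 other spindle, motor and cytokinesis genes 25 were called higher against chow and none lower, with a median of 3.14. Gtse1, a mitotic microtubule protein, measured 0.846 ± 0.181 CPM on chow and 11.4 ± 6.16 CPM on day 4 (SD, n = 4), and rose by 3.67 ± 0.61 (edgeR quasi-likelihood fit, Benjamini-Hochberg adjusted p = 0.00103). Ckap2l rose by 3.86 ± 0.71 and the centriole kinase Plk4 by 1.16 ± 0.21, and the microtubule polymerase Ckap5 was the gene not called (0.24 ± 0.10). Of 28 other kinetochore and centromere genes 21 were called higher, with a median of 1.41, including Incenp (1.86 ± 0.34) and Ska1 (3.94 ± 0.76). Of 16 other G2/M regulators 15 were called higher, with a median of 1.29, including the checkpoint protein Bub3 (0.57 ± 0.10), Cdca3 (2.68 ± 0.49) and Cdca2 (3.55 ± 0.65). Wee1, the kinase that holds Cdk1 inactive, was not called (0.73 ± 0.34). Of 15 condensin and cohesion genes 13 were called higher and 1 lower, with a median of 1.79. Esco2 (3.95 ± 0.69) and Cdca5 (3.25 ± 0.58), which secure cohesion, rose, and Pttg1, securin, fell from 27.6 ± 2.498 to 18.8 ± 1.88 CPM (-0.54 ± 0.11).

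Lists of DNA replication, of G1 and of the regulators of cell cycle genes were also described on day 4. Of all tested genes 18% were called higher that day and 35.3% in either direction. Of 20 DNA replication genes 18 were called higher, with a median of 1.42, including Uhrf1 (3.30 ± 0.54), Cdc45 (0.97 ± 0.17) and Pcna (0.73 ± 0.13). Their summed level was 202 to 215 CPM on chow, 226, 605, 507 and 563 CPM on day 4, and 227, 205, 255 and 422 CPM on day 6, so the same 4 libraries were high. Of 14 tested G1 cyclins and CDK inhibitors 8 were called higher and 2 lower, with a median of 0.46: the E-type cyclins Ccne1 (1.67 ± 0.29) and Ccne2 (1.57 ± 0.30) rose, and the inhibitor Cdkn1b fell (-0.80 ± 0.13). Of 18 DREAM and E2F regulators, the family that represses and activates such genes, 7 were called higher and 4 lower, with a median of 0.26, among them E2f8 (3.53 ± 0.65), E2f1 (1.40 ± 0.26) and Tfdp1 (0.64 ± 0.10). Of 12 core subunits of the anaphase-promoting complex 4 were called higher (18% of all tested genes were), with a median of 0.18: Anapc10 (0.45 ± 0.13), Anapc4 (0.25 ± 0.08), Anapc2 (0.19 ± 0.06) and Anapc5. That count was 2 without chow replicate 2, 1 without chow replicate 3 or 4, 2 without day 4 replicate 3, 0 without day 4 replicate 4, 1 with scaling by library size only, and 1 with all 4 libraries that stood apart set aside. With day 4 replicate 1 and day 6 replicate 4 set aside, the counts called higher were 26, 23, 16 and 13 for the spindle, kinetochore, G2/M and cohesion lists in this order. They were 19, 10, 8 and 4 for the replication, G1, DREAM and anaphase-promoting lists, where 19.1% of all genes were called higher. Called lower in that fit were 1 cohesion, 2 G1 and 4 DREAM genes and none of the other lists.

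**Figure D5:**
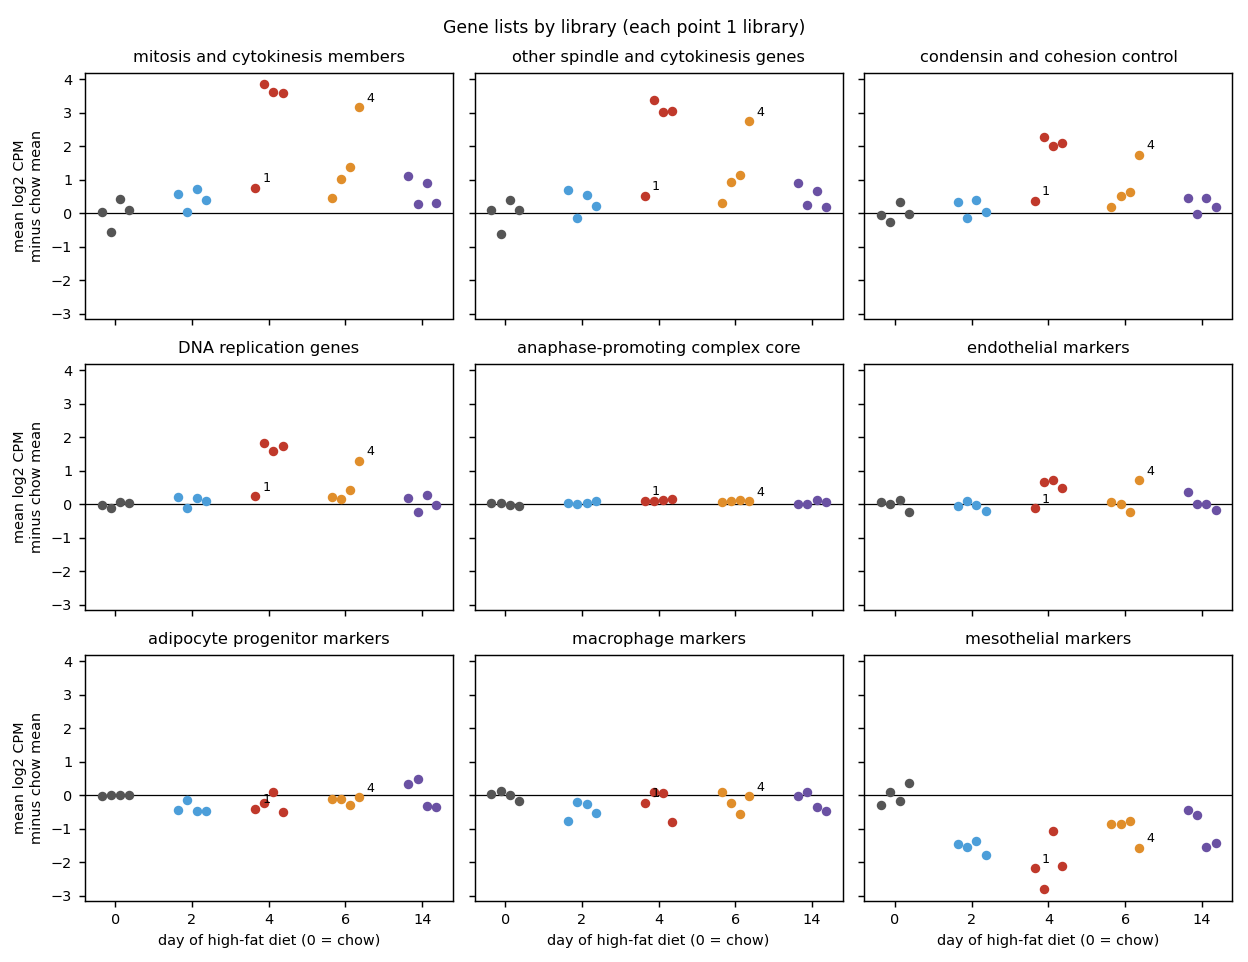
Mean log2 CPM minus the chow mean for the 46 genes, for 4 other cell cycle lists and for 4 marker lists, against the day of high-fat diet. Each point is 1 library, the labels 1 and 4 mark day 4 replicate 1 and day 6 replicate 4, and the other spindle, cohesion and replication lists are highest in the same 4 libraries as the 46 genes.

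Markers of cell types in the tissue moved with the 46 genes in part. The 10 endothelial markers summed to 949 to 1250 CPM on chow, 1054 to 1160 CPM on day 2, and 1100, 1913, 2090 and 1753 CPM on day 4. On day 6 they summed to 1162, 1147, 979 and 1983 CPM, and on day 14 to 974 to 1479 CPM. The same 4 libraries that were high for the mitotic genes were thus the 4 highest for endothelial markers, and none of the 10 was at 0 in any library. On day 4, 5 of the 10 were called higher, where 18% of all tested genes were, with a median log2 change of 0.56, including Egfl7 (0.84 ± 0.18), Kdr (0.65 ± 0.16), a receptor for vascular growth factor, and Cdh5 (0.82 ± 0.27). The count was 3 without chow replicate 1 or 3, and 2 without chow replicate 4 or day 4 replicate 2, 3 or 4. Smooth muscle and pericyte markers summed to 1846, 1908 and 1773 CPM in day 4 replicates 2 to 4 and to 1817 CPM in day 6 replicate 4, against 1249 to 1642 CPM in the other libraries. 2 of 10, Cspg4 (1.36 ± 0.31) and Acta2 (1.28 ± 0.38), were called higher on day 4, near the 18% of all tested genes, and 1 without chow replicate 3 or day 4 replicate 4. What part these cell types had in the mitotic genes' rise was not tested.

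In the other marker lists these 4 libraries were not the 4 highest. Macrophage markers summed to 1363, 1651, 1563 and 906 CPM on day 4 against 1445 to 1716 CPM on chow. Of these 12, 0 were called higher and 1, Mertk, lower (-0.60 ± 0.16), under the 35.3% of all tested genes called in either direction. The count was 2 without day 2 replicate 1 or day 4 replicate 4. Adipocyte progenitor markers summed to 2283 to 2663 CPM on day 4 and 2486 to 3017 CPM on chow, with a median log2 change of -0.52. Of these 10, 2 were called higher and 4 lower, against 35.3% of all tested genes called in either direction. Among them were Col15a1 (1.04 ± 0.23), Dcn (-1.25 ± 0.23) and Dpp4 (-1.28 ± 0.30). Adipocyte markers summed to 51786 CPM in day 4 replicate 1 and to 35724, 39499 and 40033 CPM in replicates 2 to 4, and to 40508 CPM in day 6 replicate 4. Chow replicate 4, which stood apart, was at 32604 CPM and the other 3 chow libraries at 42807, 49200 and 54413 CPM. The 4 libraries high for the mitotic genes lay below those 3, but so did the lowest day 14 library, at 39913 CPM. In the 4 libraries high for the mitotic genes the mean log2 level of adipocyte markers was -0.34, -0.23, -0.22 and -0.14 relative to chow. The only other library below 0 was chow replicate 4 (-0.35). The part of this shift in the mitotic genes' rise was not tested. On day 4, 2 of 10 were called higher and 2 lower, near the 35.3% of all tested genes called in either direction, with Lep at 2.05 ± 0.32, Cfd at -2.26 ± 0.60 and Adipoq at -0.92 ± 0.31. That count of 4 was 2 without chow replicate 2 or 3 or day 4 replicate 3 or 4. Mesothelial markers were called lower in 10 of 10 cases on day 4, where 35.3% of all tested genes were called in either direction. They summed to 82.2 to 243 CPM on day 4 against 400 to 523 CPM on chow, day 4 replicate 1 included (113 CPM). T, NK and B cell markers summed to 18.8 CPM in day 4 replicate 1 and 6.30 to 11.8 CPM in the others of that day, with 10.8 to 23.5 CPM on chow. Of 11 tested, 1 was called lower (Cd3e, -1.36 ± 0.49) and 0 higher, under the 35.3% of all tested genes called in either direction. That count was 0 without chow replicate 2 or 3 or day 4 replicate 2 or 4, and 2 without day 4 replicate 1 or day 14 replicate 4. Erythroid markers summed to 948, 319.6, 471 and 527 CPM on day 4 and to 678, 371.5, 211 and 296 CPM on chow, highest of all libraries in day 4 replicate 1. The 7 tested had a median log2 change of 0.61 on day 4, with 6 above 0. Male germ cell markers, which share genes of cell division, summed to 2.94 to 5.55 CPM on day 4 and 3.92 to 9.30 CPM on chow, with 6 to 8 of 10 at 0 reads in each day 4 library and the 1 tested, Sycp3, not called (-0.32 ± 0.29). Epididymal epithelium markers summed to at most 0.888 CPM on day 4, with 7 to 9 of 10 at 0 reads. Their 1 tested gene, Cuzd1, was called lower, with its reads on chow mostly in replicate 4, and was not called without that library or without day 4 replicate 4.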

How the data were processed

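Messenger RNA of 20 libraries was measured as read counts per gene, deposited by the authors as 1 table of raw whole-number counts. Per the submitters' processing notes the tools were STAR, featureCounts, CASAVA, limma and R 3.0, listed with no role or order. The genome build, annotation and use of strand are not given in the sources used here.

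Of 39179 gene IDs 37607 had a symbol. Rows without one held 0.139% of counts. Genes were kept by edgeR's filterByExpr (minimum count 10, minimum total 15), scaled by TMM, and fitted over all 5 groups with edgeR 4.0.16 in R 4.3.3 (glmQLFit and glmQLFTest, 15 residual degrees of freedom, prior count 2 for log2 levels), without a replicate block. Benjamini-Hochberg adjustment ran over all 15254 tested genes, with 0.05 as the threshold for a call. CPM is counts per 1000000 of the TMM-scaled library size. Each SE is the absolute log2 change divided by the square root of its test's F statistic, not an error estimated by the fit itself. The pipeline was tested on simulated data in which all libraries of a day shared a common level per gene, unlike the split between libraries seen here.

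The comparisons of days 2, 4, 6 and 14 with chow share the same 4 chow libraries, and those with day 4 share its libraries. The labels call the samples biological replicates and do not tie them to animals, so p-values measure the spread between these samples. Replicate numbers were not used to pair the samples, though some same-numbered libraries deviated together, as given below.

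Alternatives were DESeq2 1.42.0, limma-voom (limma 3.58.1), other scalings and filters, the compared groups alone, a replicate block, a threshold of 0.01, each library left out, and, chosen after seeing the data, 2 or 4 libraries set aside. The members and all lists were chosen with earlier results of these data known. Genes named with values in every library were those listed for each role, the 3 largest and 3 smallest changes on day 4, any member not called on day 4 and any called on day 2. From each other list up to 3 called genes with the smallest adjusted p are named, by their change or group means. Other genes are named where a count turns on them. Some results these rules would name are not reported here. Exon lengths, overlaps and copies came from GENCODE M21, and start regions from RefSeq (GRCm38.p6). Floors of 3 counts cover counting error only.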

Additional observations from a re-analysis of the deposited data

Results flagged for a closer look

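In 46 of 230 sets of 4 libraries (46 genes in 5 groups), 1 library lay far from the other 3 of its day by Dixon's test (the gap to the nearest library over the whole range). Chance flags about 1 in 20 groups, and genes of 1 library are not independent.

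Day 6 replicate 4 was the far library, always the highest, for 29 genes. Their levels in it, in CPM, were as follows. Ccna2 (27.3), Ccnb1 (14.2), Ccnb2 (15.9), Cdk1 (22.03), Melk (7.5), Top2a (68.7), Pimreg (15.6), Plk1 (12.3), Birc5 (13.4) and Bub1 (8.097) came first in the order of roles. Bub1b (20.1), Ttk (5.02), Cdc20 (17.2), Spc25 (8.32), Cenpe (18.1), Cenpf (22.97), Cenpa (17.1), Kif11 (24.4), Kif18b (8.85) and Kif4 (9.79) followed. Kif2c (7.94), Tpx2 (25.3), Aspm (18.3), Spag5 (13.1), Nusap1 (15.3), Tacc3 (19.3), Racgap1 (28.97), Anln (37.6) and Prc1 (38.2) were the last of them.

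Day 4 replicate 1 was the far library, always the lowest, for 8 genes, in CPM Cdk1 (3.37), Lmnb1 (9.54), Kpna2 (33.6), Pimreg (2.54), Plk1 (1.65), Tpx2 (3.12), Kif23 (4.83) and Anln (13.9). The mean log2 level of the 46 genes above chow was far from the others in the same library, at 0.766.

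The other 9 were spread over 7 libraries. Chow replicate 2 was the lowest for Ccnb1 (0.697), Ccnb2 (0.232) and Cdc25c (0) CPM, where Cdc25c had no read. Chow replicate 3 was the highest for Lmnb1 (8.66 CPM). On day 2 the far libraries were replicate 3 for Mybl2 (1.89 CPM, the highest), replicate 1 for Ndc80 (3.24 CPM, the highest, in the shallowest library) and replicate 2 for Kif23 (3.11 CPM, the lowest). On day 14 replicate 4 stood apart for Ttk (0.155 CPM, the lowest) and replicate 1 for Nuf2 (2.19 CPM, the highest).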

How the results depend on the processing

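The day 4 rise against chow held its direction for all 46 genes under every alternative run, and 42 to 46 were called: 42 by limma-voom, where Ccnb2, Cdc20, Nusap1 and Anln were lost, and 45 of 45 tested with a stricter filter, which dropped Cdc25c. The other counts depended on the processing, and the cause was not tested. Against chow on day 2 (0 called), DESeq2 called 1, 1 was called with 2 libraries set aside, and the fits without 1 library that moved the count gave 1 each. On day 6 (4 called), the count was 0 without a filter, 34 by DESeq2, 1 by limma-voom, 0 with only the groups compared, 2 with the replicate block and 0 at a threshold of 0.01. It was 0 with 2 libraries set aside (median 0.96) and 0 with 4 (median 0.89), and 0 to 35 with 1 library left out, where the median ran from 0.96 (without day 6 replicate 4) to 2.39 (without day 6 replicate 1). Anln ran from -0.20 (without day 6 replicate 4) to 0.41 (without day 6 replicate 1) with 1 library left out, and turned to -0.20 with 2 libraries set aside and to -0.31 with 4. From day 2 to day 4 (45 called), the count was 0 with scaling by library size only, without a filter, by limma-voom, with only the groups compared and at 0.01, and as low as 0 with 1 library left out. From day 4 to day 6 (0 called), it was 26 to 45 in the fits without 1 library that moved it, 46 with 2 libraries set aside (median -2.91) and 46 with 4 (median -2.90). From day 4 to day 14 (45 called), it was 20 without a filter, 1 by limma-voom, 0 at 0.01, and 0 to 22 in the fits without 1 library that moved it. For any difference among the groups, limma-voom called 2 of 46. In fits that left out 1 library each, 45 of the 46 day 4 calls against chow were kept throughout, and 0 of those of day 6 against chow, day 4 against day 2 or day 14 against day 4.

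Replicate numbers are shared by the groups in the labels. Deviations from the group means correlated between -0.185 and 0.516 over 40 same-numbered pairs, with 12 over 0.1. Of the 4 numbers, 10 of 20 libraries correlated best with their own. What same-numbered libraries share is not given in the labels and was not tested. With the replicate block, 2 genes were called on day 6 against 4 without it, and the counts of the other comparisons stayed within 1.5 times. Depth limits the lowest genes most, Cdc25c above all, and the shallowest library, day 2 replicate 1.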
